A study of Mus musculus with 8 samples.

Results

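The CXC and CX3C chemokines are small secreted or membrane-tethered proteins that direct the migration of leukocytes and, in the brain, carry signals between neurons and microglia. Of the 54752 genes listed in the count tables, 10 were taken by their symbols: Cxcl1, Cxcl2, Cxcl5, Cxcl9, Cxcl10, Cxcl13 and Cxcl16, which are grouped here as inflammatory chemokines, and Cxcl12, Cxcl14 and Cx3cl1, which stromal cells or neurons make in the resting brain. Their expression was measured by RNA-seq in right cerebral cortex from 4 sham-operated mice and 4 mice with bilateral carotid artery stenosis (BCAS), a model of chronic cerebral hypoperfusion in which a microcoil is wound around each common carotid artery. The tissue was taken 3 weeks after surgery. All mice were adult males labelled C57BL/6 (C57BL/6 J in the methods) and WT, with 1 mouse per library, and the right artery carried the narrower coil, so the sequenced cortex lay on the side of the deeper stenosis. Since every BCAS mouse carried coils on both sides, the group is a model of a fixed narrowing of both arteries.

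Chemokines are grouped by the spacing of the cysteines near their amino terminus and act through G protein-coupled receptors, usually shared by several ligands. Cxcl1, Cxcl2 and Cxcl5 bind Cxcr2 and draw neutrophils, the interferon-inducible Cxcl9 and Cxcl10 bind Cxcr3 on activated T and NK cells, Cxcl13 binds Cxcr5 on B cells, and Cxcl16 binds Cxcr6. In healthy cortex the best known pair is neuronal Cx3cl1 (fractalkine) and Cx3cr1, its receptor on microglia.

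The libraries held between 16759364 and 21794435 counts assigned to genes, with medians of 17291088 in sham and 18744125 in BCAS mice. Levels are given as raw counts or as CPM, counts scaled to sequencing depth with TMM factors, and on that scale 3 counts correspond to at most 0.187 CPM in a sham library, which is the floor used here. Of the 10 genes, 7 passed the filter on low counts, and Cxcl1, Cxcl2 and Cxcl13, which had under 10 counts in all sham mice and in BCAS mouse 2, did not. One sham library, mouse 3, stood apart in choroid plexus transcripts, whose 4 markers summed to 754 CPM there against 13.6 to 44.1 CPM in the other sham mice and 27.3 to 61.4 CPM in BCAS mice. Leaving this mouse out ended no member's call. For the tissue label, 8 neuronal markers summed to between 8463 and 10080 CPM in sham mice.

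Inflammatory members that could be tested were higher in BCAS mice, and the neuronal ligand Cx3cl1 was lower. The means of Cx3cl1 and of the stromal and interneuron ligands Cxcl12 and Cxcl14 all differed by less than the fold threshold. A gene was called higher at an adjusted p under 0.05 and a log2 fold change above 1. By this rule 4 of the 7 tested members were called higher, namely Cxcl5, Cxcl9, Cxcl10 and Cxcl16, where 11.0% of the 17136 genes tested were. Cx3cl1 was the member that fell at an adjusted p under 0.05 at any fold, where 12.8% of the tested genes did. Its log2 fold change of -0.78 did not reach the fold threshold, so it was not called. Cxcl12 and Cxcl14 did not pass the test. Of the 4 called higher, Cxcl5, Cxcl9 and Cxcl10 passed the filter through their counts in BCAS mice, so that the share of members called higher is a description only. In the fit of 32537 genes with no filter beyond 1 count in total, where 6.75% were called higher, their log2 fold changes were 4.27, 5.51 and 5.21 (adjusted p of 0.0022, 0.000775 and 5.35e-05, edgeR). The values of 4 BCAS mice lay above those of all 4 sham mice without overlap in the same 4 tested members and in the untested Cxcl13, a separation seen upward in 18.5% of tested genes, and below them in Cx3cl1, a separation seen downward in 16.3%. For Cxcl9, with under 10 counts in every sham mouse, the filter allowed no other outcome. The remaining 4 members overlapped between the groups.

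**Figure D1:**
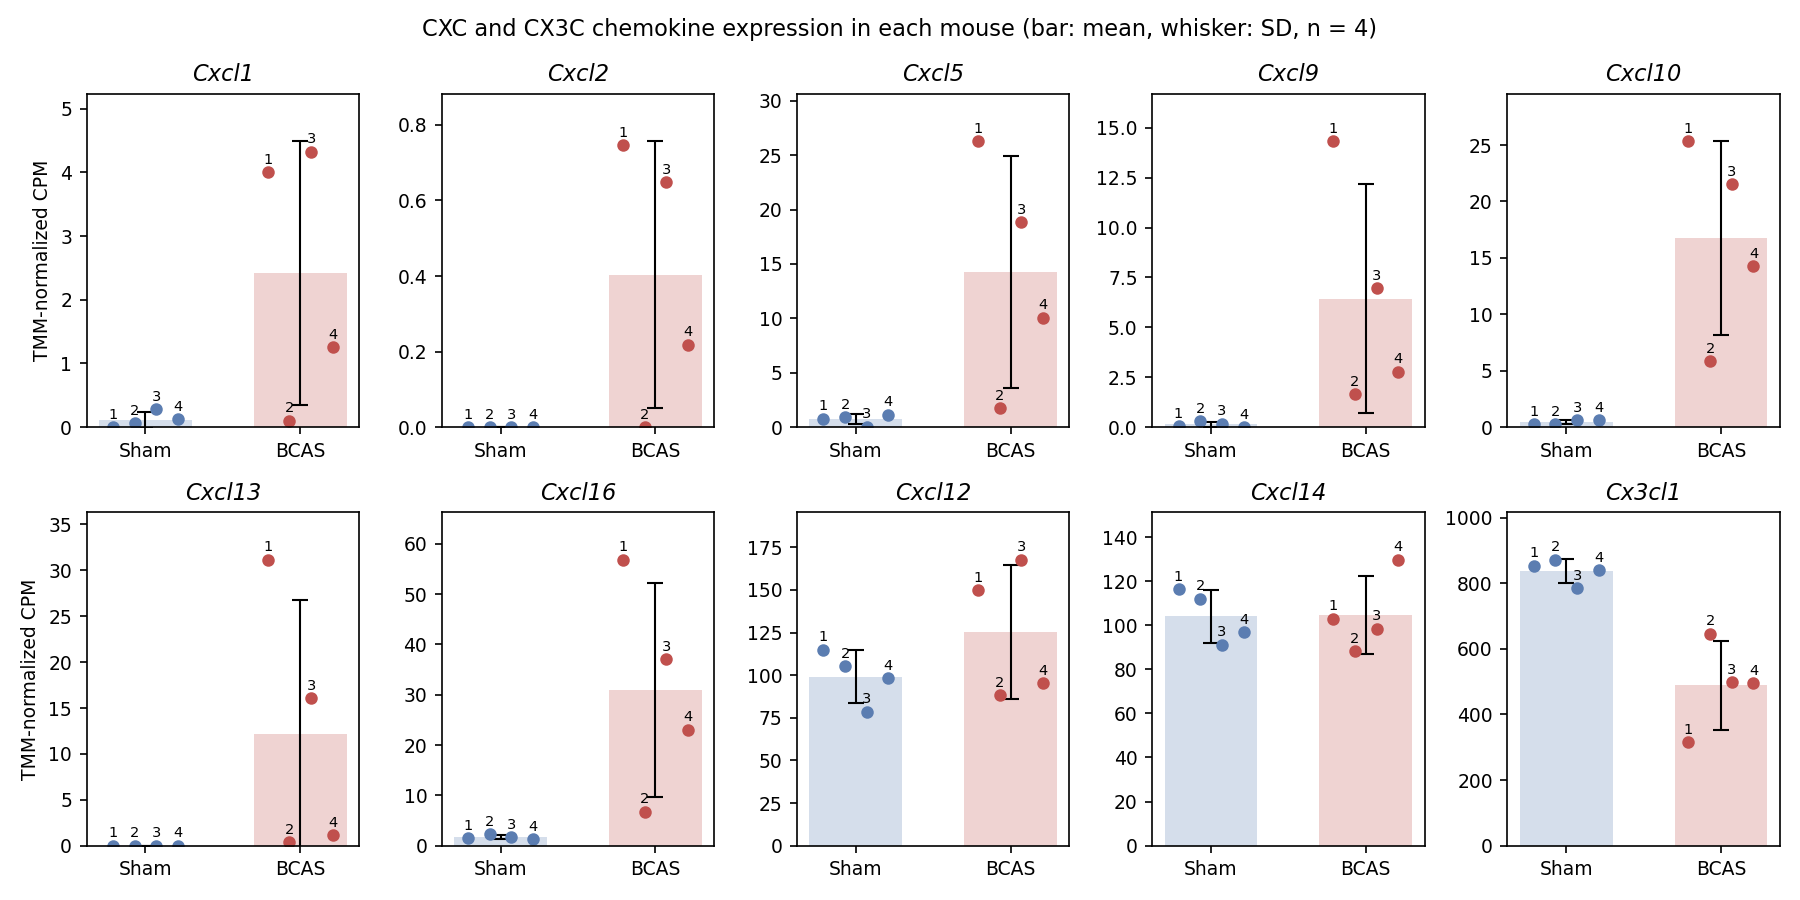
TMM-normalized CPM (vertical axis, linear and starting at 0, scaled per gene) of each chemokine in 4 sham and 4 BCAS mice, with points numbered by mouse, bars at the group mean and whiskers of 1 SD, cut at 0 where they reach below it. BCAS mouse 2 is the lowest BCAS mouse for all 9 CXC members and the highest for Cx3cl1, at 646 CPM against 316 to 499 CPM in the other BCAS mice.

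Among the Cxcr2 ligands, Cxcl5, a neutrophil attractant (chr5:90759360-90761624, + strand, mm10), had 14, 15, 1 and 19 counts in sham mice 1 to 4 and 598, 34, 349 and 185 counts in BCAS mice 1 to 4. All BCAS mice were above all sham mice, but mouse 2 reached 1.75 CPM against 26.3 CPM in mouse 1. The mean level was 0.734 ± 0.474 CPM in sham and 14.2 ± 10.6 CPM in BCAS mice (SD, n = 4 each), and the log2 fold change was 4.28 (SE 0.86, 95% interval 2.35 to 6.21). It rose at an adjusted p of 0.00887 in the quasi-likelihood test of edgeR (Benjamini-Hochberg adjustment), and the adjusted p was 0.0755 by limma-voom.

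Cxcl1 (chr5:90891241-90893115, + strand), a mouse counterpart of the human GRO chemokines, had 0, 1, 5 and 2 counts in sham mice and 91, 2, 80 and 23 counts in BCAS mice. Mice 1, 3 and 4 of the BCAS group were above every sham mouse and mouse 2 lay within the sham range. The group means were 0.117 ± 0.123 and 2.42 ± 2.07 CPM (SD, n = 4 each), and a two-sided exact permutation test of the CPM values gave p = 0.0857, where 0.0286 is the smallest p that 4 against 4 mice allow. Cxcl2 (chr5:90903871-90905938, + strand), which shares its receptor with Cxcl1, had 0 counts in all 4 sham mice and 17, 0, 12 and 4 counts in BCAS mice. Cxcl2 reads were thus found in 3 of 4 BCAS mice, and not in mouse 2. Its BCAS mean of 0.403 ± 0.354 CPM exceeded the floor of 3 counts per library at least 2.15-fold, and the exact permutation p was 0.143. In the fit with no filter, where 6.75% of genes were called higher, edgeR called both higher with adjusted p of 0.0114 for Cxcl1 and 0.0383 for Cxcl2.

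Cxcl1 and Cxcl2 lie next to each other on chromosome 5, and the RefSeq promoter windows (250 bases before and 50 after the transcription start, GRCm38.p6) of both hold the same 10 bases, GGGAATTTCC, 71 bases before the start of Cxcl1 and 97 bases before that of Cxcl2. These 10 bases, on either strand, are in 0.0883% of the 32851 windows. They are one form of the NF-kB motif searched here as GGGANNNNCC on both strands, a looser pattern that 20.7% of windows hold. The 40-base stretches around the shared match are shown to set them side by side, with matches in capitals. The capitals extend over 11 bases because the matches on the 2 strands overlap, and those at the left end of Cxcl1 belong to a further match, GGGAAACACC, that begins 90 bases before the start. The stretches are chr5:90891159-90891198 for Cxcl1 and chr5:90903787-90903826 for Cxcl2, both on the + strand, and the longest run of letters they share is 14 bases.
Cxcl1: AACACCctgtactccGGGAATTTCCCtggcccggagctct
Cxcl2: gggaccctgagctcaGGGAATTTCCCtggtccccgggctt

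The Cxcr3 ligands Cxcl9 and Cxcl10, which interferons induce, had the largest log2 fold changes of the tested members. Cxcl9 (chr5:92321347-92328079, - strand) had 1, 5, 3 and 0 counts in sham mice and 326, 32, 129 and 51 counts in BCAS mice. Every BCAS mouse held more than every sham mouse, with the highest BCAS level 8.69 times the lowest. With every sham count under 10, the filter let Cxcl9 be tested only if all 4 BCAS mice were above them. This separation therefore had to occur, and the filtered test of Cxcl9 is a description only. The means were 0.135 ± 0.138 and 6.43 ± 5.74 CPM (SD, n = 4 each), and the gene rose by a log2 fold change of 5.53 (SE 0.93, 95% interval 3.44 to 7.62, adjusted p = 0.00476, edgeR). With no filter on low counts it was 5.51, at an adjusted p of 0.000775 (edgeR). In the filtered fits the log2 fold change was 4.79 without BCAS mouse 1, 6.27 without sham mouse 2 and 4.47 by limma with a trend.

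Cxcl10 (chr5:92346638-92348889, - strand) had 5, 4, 11 and 10 counts in sham mice and 576, 113, 399 and 262 counts in BCAS mice. The groups were far apart, and Cxcl10 was the inflammatory member with the least spread among BCAS mice, the highest being 4.35 times the lowest. Its mean went from 0.442 ± 0.203 to 16.7 ± 8.60 CPM (SD, n = 4 each), a log2 fold change of 5.22 (SE 0.54, 95% interval 4.01 to 6.44, adjusted p = 0.00146, edgeR). Cxcl10 passed the filter through its BCAS counts, and with no filter the log2 fold change was 5.21 (adjusted p = 5.35e-05, edgeR). A share of 5.9% of its exonic bases is also exon of Art3 on the opposite strand, and reads there cannot be told apart by strand in these counts.

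Both promoters are shown because Cxcl9 and Cxcl10 are neighbours that rose together, as the 250 bases before the RefSeq start, on the - strand and with matches in capitals. The 4 motifs were searched on both strands in the 300-base windows: GAAANNGAAA, the core repeat of an interferon-stimulated response element (ISRE) (in 3.44% of all windows), the NF-kB motif above, TTCNNNGAA, the gamma-activated site bound by STAT dimers (8.3%), and TGANTCA, an AP-1 site (7.81%). The Cxcl10 sequence (chr5:92348890-92349139) holds the ISRE repeat 213 bases, 2 NF-kB matches 159 and 103 bases and an AP-1 match 74 bases before the start. The Cxcl9 sequence (chr5:92328080-92328329) holds 1 NF-kB match, on the reverse strand, 130 bases before the start, and its window has an AP-1 match 31 bases after the start. No overlap between matches of different motifs was found in them. A match describes the letters only.
Cxcl9: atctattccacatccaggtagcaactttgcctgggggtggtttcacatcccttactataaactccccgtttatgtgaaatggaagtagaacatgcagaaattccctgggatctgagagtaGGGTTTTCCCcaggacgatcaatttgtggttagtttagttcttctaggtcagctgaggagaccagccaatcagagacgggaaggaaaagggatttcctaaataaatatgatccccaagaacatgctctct
Cxcl10: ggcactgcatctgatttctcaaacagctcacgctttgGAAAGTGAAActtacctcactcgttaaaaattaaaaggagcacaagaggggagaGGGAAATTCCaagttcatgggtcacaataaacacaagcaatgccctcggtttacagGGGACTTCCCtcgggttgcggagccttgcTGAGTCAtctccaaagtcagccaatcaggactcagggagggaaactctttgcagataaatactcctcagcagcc

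**Figure D2:**
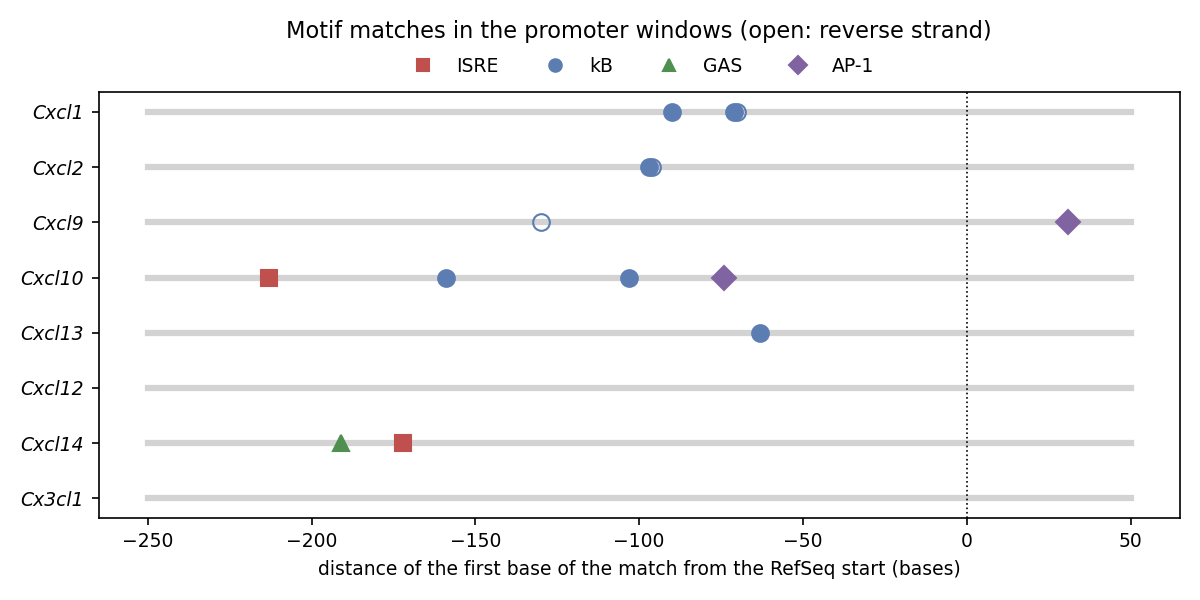
Position of each motif match (horizontal axis, bases from the RefSeq start, negative before it) in the 300-base promoter windows of the 8 members that have one, with open markers for the reverse strand. NF-kB matches (circles) appear in 5 windows, those of Cxcl1, Cxcl2, Cxcl9, Cxcl10 and Cxcl13, and the windows of Cxcl12 and Cx3cl1 hold no match to any of the 4 motifs.

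Of the 10 members, 8 had a RefSeq window, Cxcl5 and Cxcl16 being the others. The windows of Cxcl12 and Cx3cl1 were richest in G and C, at 64.7% each, and those of Cxcl13 and Cxcl9 poorest, at 44.0% and 44.3%. The window of Cxcl13 held 1 NF-kB match 63 bases before the start, and that of Cxcl14, which did not pass the expression test, held the ISRE repeat 172 bases and a gamma-activated site 191 bases before its start.

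Cxcl13 (chr5:95956951-95961068, + strand), which guides B cells into lymphoid follicles, differed most among BCAS mice. It had 0 counts in all 4 sham mice and 709, 8, 297 and 21 counts in BCAS mice, or 31.2, 0.412, 16.0 and 1.14 CPM. Mouse 1 was 75.6 times above mouse 2, yet each BCAS mouse was above each sham mouse. The BCAS mean of 12.2 ± 14.6 CPM (SD, n = 4) exceeded the floor of 3 counts per library at least 65.1-fold, and without mouse 1 the mean was 5.87 CPM and the bound 31.3-fold. The exact permutation test gave p = 0.0286, the smallest it can give, and with no filter on low counts edgeR gave an adjusted p of 0.00972.

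Cxcl16 (chr11:70453983-70459984, - strand) encodes a transmembrane chemokine that is also a scavenger receptor for oxidized lipoprotein. It had 27, 37, 29 and 21 counts in sham mice and 1293, 131, 685 and 423 counts in BCAS mice. All BCAS mice lay above the sham mice, mouse 2 by the smallest margin, at 6.75 CPM against a sham maximum of 2.31 CPM. The means were 1.69 ± 0.442 and 30.9 ± 21.3 CPM (SD, n = 4 each), and it rose by 4.19 on the log2 scale (SE 0.61, 95% interval 2.82 to 5.56, adjusted p = 0.00297, edgeR). Of its exonic bases, 18.3% are also exon of Zmynd15 on the opposite strand.

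Cxcl12 (chr6:117168535-117181367, + strand) is made by endothelial, perivascular and meningeal cells and retains Cxcr4-bearing leukocytes at the vessel wall. Its levels were 115, 105, 78.6 and 98.1 CPM in sham mice and 150, 88.4, 168 and 95.4 CPM in BCAS mice. BCAS mice 1 and 3 were above all sham mice, and mice 2 and 4 lay within the sham range. The means of 99.2 ± 15.4 and 125 ± 39.5 CPM (SD, n = 4 each) gave a log2 fold change of 0.34 (SE 0.22, 95% interval -0.15 to 0.83, adjusted p = 0.250, edgeR), a difference not larger than the spread between mice.

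Cxcl14 (chr13:56288643-56296551, - strand), a conserved chemokine that a subset of cortical interneurons expresses, had 116, 112, 91.2 and 96.7 CPM in sham mice and 103, 88.3, 98.4 and 130 CPM in BCAS mice. The ranges overlapped throughout, with the lowest and the highest value both in BCAS mice. The means were 104 ± 12.1 and 105 ± 17.7 CPM (SD, n = 4 each), with a log2 fold change of 0.01 and a 95% interval of -0.29 to 0.31 (adjusted p = 0.958, edgeR).

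Cx3cl1 (chr8:94772009-94782427, + strand), fractalkine, is a membrane-tethered ligand of neurons. It was the most abundant member in both groups, with 854, 872, 784 and 840 CPM in sham mice and 316, 646, 499 and 495 CPM in BCAS mice. Every BCAS mouse was below every sham mouse, mouse 1 furthest. The mean level of 838 ± 37.9 CPM in sham and 489 ± 135 CPM in BCAS mice (SD, n = 4 each) gave a log2 fold change of -0.78 (SE 0.19, 95% interval -1.21 to -0.34), and the gene fell with an adjusted p of 0.0190 by edgeR. Without sham mouse 1, 2 or 4 the adjusted p was 0.0541, 0.0543 and 0.0518.

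**Figure D3:**
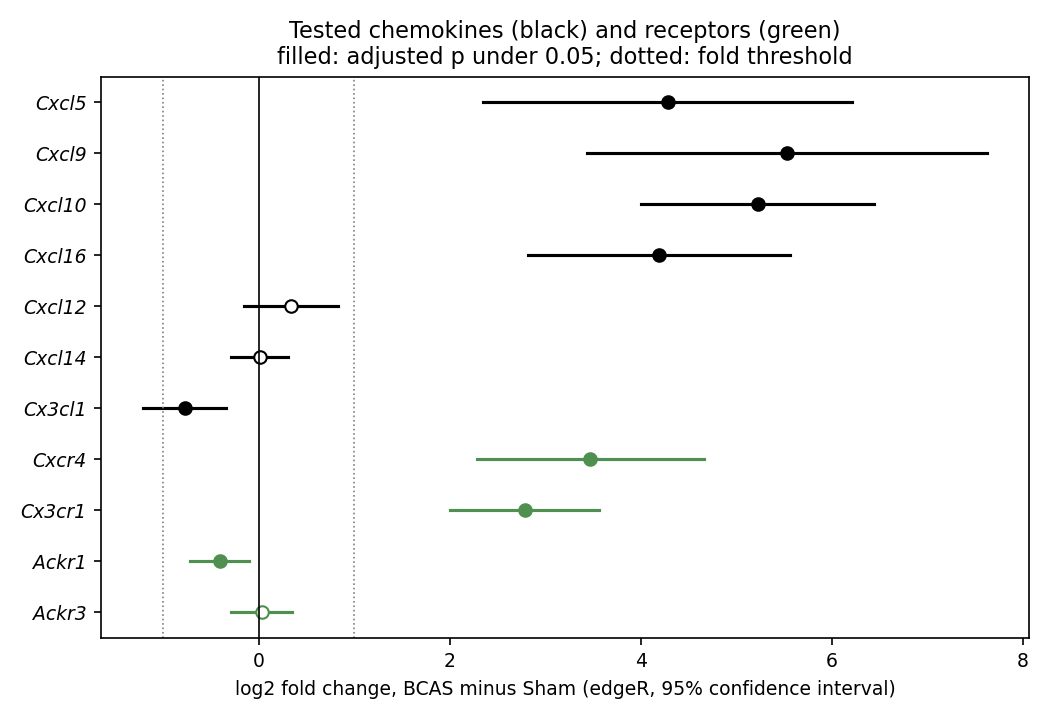
Log2 fold change of BCAS over sham mice (horizontal axis, edgeR) with its 95% confidence interval for the 7 tested chemokines (black) and the 4 tested receptors (green), filled where the adjusted p was under 0.05. The intervals of Cxcl5, Cxcl9, Cxcl10 and Cxcl16 begin at 2.35 or higher, those of Cxcl12 and Cxcl14 include 0, and that of Cx3cl1 lies between -1.21 and -0.34.

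Per length of transcript (RPKM, CPM divided by exonic kilobases), the order of mean levels in sham mice was Cx3cl1 at 213, Cxcl14 at 57.0, Cxcl12 at 12.1, Cxcl16 at 0.560, Cxcl5 at 0.394, Cxcl10 at 0.196, Cxcl1 at 0.0625 and Cxcl9 at 0.0448, with Cxcl2 and Cxcl13 at 0 counts. The first 3 were separate from each other in sham mice, whereas Cxcl16, Cxcl5 and Cxcl10 overlapped with their neighbours in the order. In BCAS mice the first 3 places were held by the same genes, at 124, 57.4 and 15.3 RPKM, and Cxcl13 came next at 10.6 RPKM, followed by Cxcl16 at 10.2, Cxcl5 at 7.64 and Cxcl10 at 7.43 RPKM, whose ranges over mice overlapped. The place of Cxcl13 came from mice 1 and 3, at 27.1 and 13.9 RPKM. In mice 2 and 4, at 0.358 and 0.995 RPKM, it was below Cxcl16, Cxcl5 and Cxcl10, and in mouse 1 both Cxcl13 and Cxcl16, at 18.8 RPKM, were above Cxcl12, at 18.4 RPKM. Cx3cl1 made up 73.4% to 76.7% of the summed RPKM of the 10 genes in sham mice, against 34.4%, 71.4%, 50.4% and 54.6% in BCAS mice 1 to 4. The 7 inflammatory members together made up 0.365% to 0.509% in sham mice, against 33.6%, 2.92%, 20.1% and 9.57% in BCAS mice 1 to 4, so that in mouse 1 they came close to the share of Cx3cl1 and in mouse 2 they did not.

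In 6 of the 7 inflammatory members the BCAS mice stood in the order 1, 3, 4 and 2 from high to low, and in Cxcl1 mouse 3 was above mouse 1. Mouse 2 was the lowest BCAS mouse for all 9 CXC members, and mouse 1 was the highest for 6 of them, mouse 3 for Cxcl1 and Cxcl12 and mouse 4 for Cxcl14. Of the CPM summed over the 4 BCAS mice, mouse 1 held 63.9% for Cxcl13, 55.7% for Cxcl9, 46.1% for Cxcl5, 46.0% for Cxcl16 and 37.8% for Cxcl10, and mouse 2 held 0.845%, 6.41%, 3.07%, 5.46% and 8.69% of them. For Cx3cl1 mouse 2 held the most, 33.0%, and mouse 1 the least, 16.1%.

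Marker genes of several cell types differed between the groups too, though not all in the mouse order above. Astrocyte marker sums were highest in BCAS mouse 4, at 27.1% of the BCAS sum, and hemoglobin sums in mouse 3, at 29.2%. The 4 B and plasma cell markers summed to 0.905 to 1.12 CPM in sham and 1.96 to 101 CPM in BCAS mice, and mouse 1 held 66.7% and mouse 2 1.29% of their BCAS sum. The 7 T and NK cell markers went from 2.12 to 4.87 CPM in sham to 5.25 to 60.1 CPM in BCAS mice, and the 4 monocyte markers from 0.422 to 1.50 CPM to 3.30 to 78.4 CPM. Most of the T and NK cell sum in sham mice was Cd4, at 1.83 to 4.37 CPM, which overlapped with its 3.55 to 14.7 CPM in BCAS mice. The other 6 summed to 0.286 to 0.682 CPM in sham and 1.70 to 45.4 CPM in BCAS mice. The sum of the 6 neutrophil markers was almost wholly Csf3r, which microglia and monocytes express too, at 5.07 to 9.09 CPM in sham and 54.6 to 205 CPM in BCAS mice. The other 5, of which Ly6g was at 0 in all 8 libraries, summed to 0.125 to 0.744 CPM in sham and 0.618 to 11.8 CPM in BCAS mice. In the B and plasma cell sum Jchain alone reached 87.5 CPM, and the other 3 markers went from 0.362 to 0.811 CPM in sham to 0.979 to 13.9 CPM in BCAS mice. All 5 fibroblast markers rose at an adjusted p under 0.05, beside 19.2% of all tested genes, with sums of 51.7 to 73.3 CPM in sham and 135 to 869 CPM in BCAS mice, and all 6 microglial markers rose, with sums of 196 to 242 CPM and 758 to 2709 CPM. Border macrophage markers rose in 3 of 4 genes (15.2 to 19.2 CPM in sham, 27.9 to 84.3 CPM in BCAS mice), astrocyte markers in 5 of 6 (4345 to 5090 and 5071 to 5989 CPM) and hemoglobin genes in 2 of 4 (56.7 to 76.7 and 90.6 to 119 CPM). Endothelial markers rose in 2 of 6 and pericyte and smooth muscle markers in 2 of 5, while none of 5 oligodendrocyte markers and none of 4 choroid plexus markers passed the test. Their part in the chemokine differences was not tested, and in whole cortex a change in the number of cells of a type and a change in RNA per cell cannot be told apart.

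**Figure D4:**
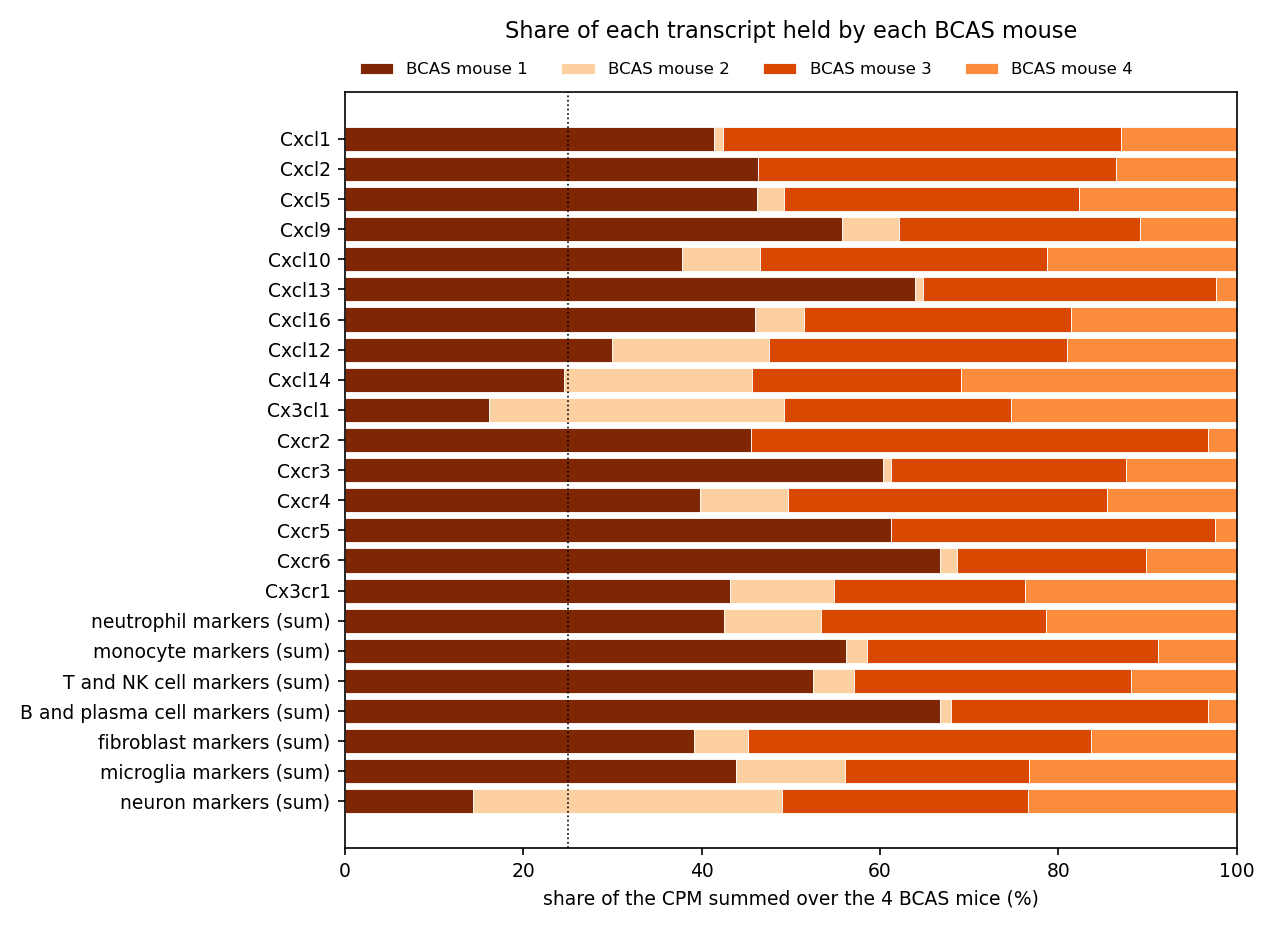
Share of the CPM summed over the 4 BCAS mice that each mouse holds (horizontal axis, percent; dotted line at 25%), for the 10 chemokines, 6 receptors and the summed markers of 7 cell types. BCAS mouse 2 (palest) holds 0.845% of Cxcl13, 1.29% of the B and plasma cell markers and 33.0% of Cx3cl1, and BCAS mouse 1 (darkest) holds 63.9%, 66.7% and 16.1% of them.

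Of the 9 receptors of these ligands 4 were tested, and 2 of them, Cxcr4 and Cx3cr1, were called higher, beside 11.0% of all tested genes. Cxcr4, the receptor of Cxcl12, had 12, 21, 24 and 36 counts in sham and 556, 117, 406 and 164 counts in BCAS mice, and rose by a log2 fold change of 3.47 (SE 0.53, adjusted p = 0.0034, edgeR). Cx3cr1, a receptor of microglia and monocytes, had 67.2, 69.5, 58.8 and 59.6 CPM in sham and 759, 204, 376 and 417 CPM in BCAS mice, and rose by 2.78 (SE 0.35, adjusted p = 0.0020, edgeR). For both receptors every BCAS mouse exceeded every sham mouse. Ackr3, the scavenging receptor of Cxcl12, had a log2 fold change of 0.03 (adjusted p = 0.882, edgeR). Ackr1, a decoy receptor of venular endothelium and erythrocytes, fell by 0.41 on the log2 scale (adjusted p = 0.0462, edgeR), which held in 6 of 17 alternative settings and was lost on leaving out any mouse but BCAS mouse 2, and 25.7% of its exonic bases are shared with Cadm3.

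The receptors of the inflammatory members did not pass the filter, being low in sham mice and in BCAS mouse 2. Cxcr3, shared by Cxcl9 and Cxcl10, had 2, 3, 0 and 1 counts in sham and 247, 3, 88 and 41 in BCAS mice. Cxcr6, the receptor of Cxcl16, had 0, 3, 6 and 4 counts in sham and 359, 9, 93 and 44 in BCAS mice. Mouse 2 again held the fewest reads of both. Cxcr2, the receptor of Cxcl1, Cxcl2 and Cxcl5, had 2, 0, 0 and 2 counts in sham and 71, 0, 65 and 4 in BCAS mice. Cxcr5, the receptor of Cxcl13, had 1, 2, 0 and 2 counts in sham and 31, 0, 15 and 1 in BCAS mice, so that in mice 2 and 4 it lay within the sham range. In the fit with no filter, where 6.75% of genes were called higher, edgeR called Cxcr2, Cxcr3 and Cxcr6 higher (adjusted p of 0.0292, 0.00425 and 0.00510) and gave Cxcr5 an adjusted p of 0.136, while exact permutation tests of their CPM gave p = 0.171 for Cxcr2, 0.0571 for Cxcr3, 0.0286 for Cxcr6 and 0.400 for Cxcr5.

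Ligand and receptor levels were set against each other within each mouse as a log2 difference, among 5 such relative levels tested by a two-sided exact permutation test. Both levels were first divided by exonic length, which leaves the difference between the groups as it was. Per length, Cx3cl1 exceeded Cx3cr1 by 3.86, 3.85, 3.93 and 4.01 on the log2 scale in sham mice, against -1.07, 1.86, 0.60 and 0.44 in BCAS mice. In BCAS mouse 1 the receptor was above the ligand and in the other mice it was below. The group means of 3.91 ± 0.08 and 0.46 ± 1.20 (SD, n = 4 each), a ratio of ligand to receptor of 15.1 in sham and 1.37 in BCAS mice, differed by -3.45. With Cx3cl1 lower and Cx3cr1 higher in every BCAS mouse, this difference had to separate the groups, and its exact permutation p of 0.0286 (adjusted 0.0476) adds nothing to the values of the genes themselves. Cxcl12 exceeded Cxcr4 per length by 3.96 ± 0.77 in sham and 1.02 ± 0.54 in BCAS mice, a difference of -2.94 (SD, n = 4 each, exact permutation p = 0.0286, adjusted 0.0476), also lower in 4 of 4 BCAS mice. Cxcr4 alone separated the groups, with a log2 fold change of 3.47 against 0.34 for Cxcl12. The difference thus largely restates the rise of Cxcr4, and its p is not separate evidence.

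Ligands of the resting brain were then set against markers of the cells known to make them, in log2 CPM without division by length, so that only the difference between the groups can be read. Relative to the mean of 8 neuronal markers, Cx3cl1 was at 0.08 ± 0.04 in sham and 0.12 ± 0.10 in BCAS mice on the log2 scale, a difference of 0.04 (SD, n = 4 each, exact permutation p = 0.571, adjusted 0.686), with all 8 mice between 0.02 and 0.24. The neuronal markers themselves had a median log2 fold change of -0.81, beside -0.78 for Cx3cl1, and 7 of the 8 fell, beside 12.8% of all tested genes. Relative to the mean of 8 interneuron markers, Cxcl14 was at -0.06 ± 0.10 in sham mice and at 1.22, 0.06, 0.59 and 0.78 in BCAS mice, whose mean was 0.66 ± 0.48. The difference of 0.73 was upward in 4 of 4 BCAS mice (n = 4 each, exact permutation p = 0.0286, adjusted 0.0476). BCAS mouse 2, at 0.0584, was only just above the highest sham mouse, at 0.0028. Cxcl14 itself had a log2 fold change of 0.01 and the 8 markers a median of -0.66, so the difference is mostly that of the markers. The interneuron markers were not uniform, with log2 fold changes from -1.20 for Pvalb and -1.18 for Cck to 0.02 for Gad2, and BCAS mouse 4, the highest for Cxcl14, was also the highest of all 8 mice for Gad2 at 355 CPM and for Slc32a1 at 107 CPM. The same mouse was below every sham mouse for Vip at 20.6, Sst at 101, Pvalb at 10.9 and Cck at 123 CPM. Relative to 6 endothelial markers, Cxcl12 was at 1.50 ± 0.08 in sham and 1.43 ± 0.45 in BCAS mice, a difference of -0.07 (SD, n = 4 each, exact permutation p = 0.686, adjusted 0.686). BCAS mice 1, 2 and 4, at 1.37, 1.30 and 0.99, lay below all sham mice, and mouse 3, at 2.05, lay above them.

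**Figure D5:**
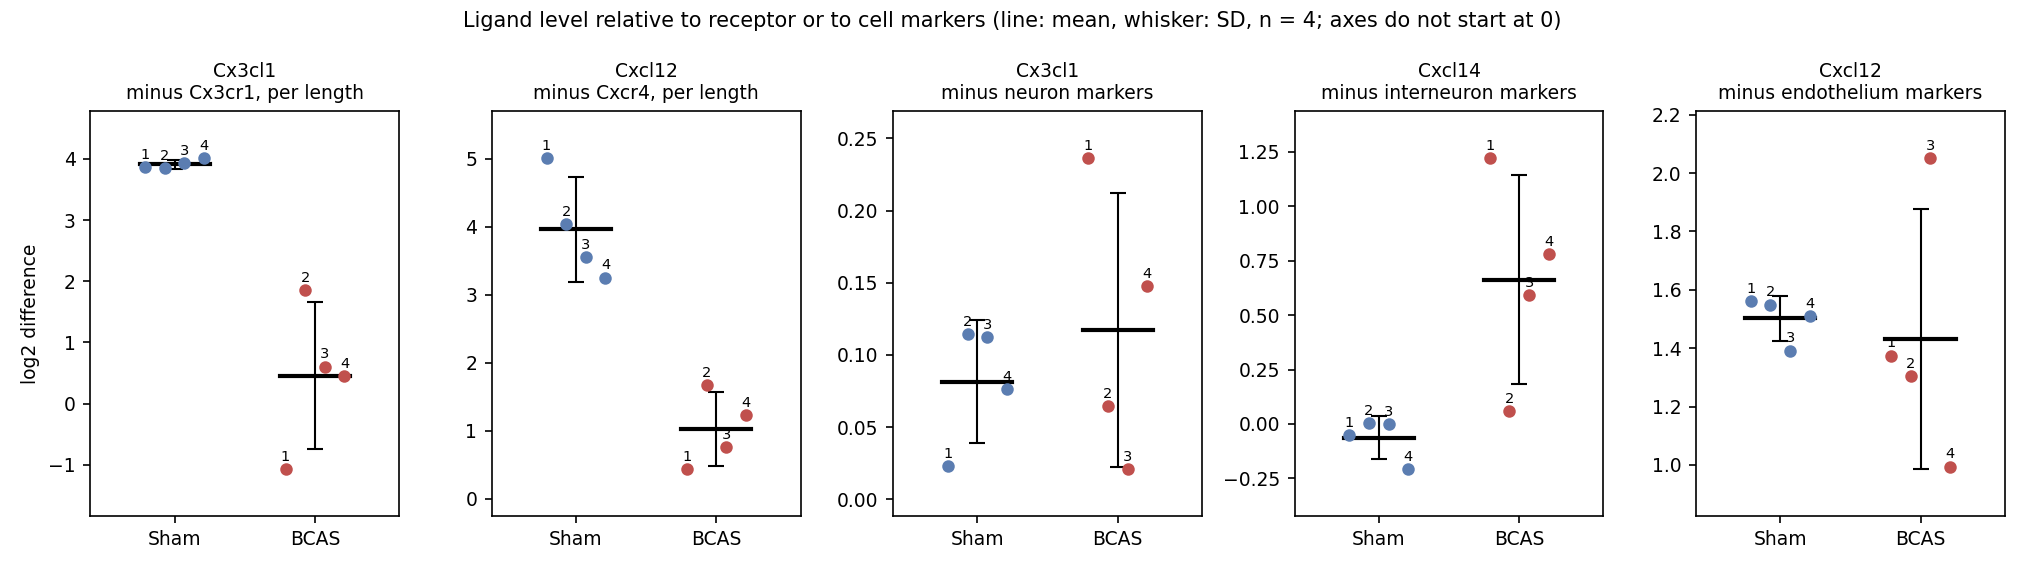
Per-mouse log2 difference (vertical axis, not starting at 0 and scaled per panel) between a ligand and its receptor, per exonic length, or between the CPM of a ligand and the mean of cell markers, with lines at the mean and whiskers of 1 SD over 4 mice. Cx3cl1 relative to Cx3cr1 goes from 3.91 in sham to 0.46 in BCAS mice, whereas relative to neuron markers it is 0.08 and 0.12.

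Some of these chemokines are cut by proteases, which release tethered Cx3cl1 and Cxcl16 or trim soluble ligands. Of 5 such proteases, 4 rose at an adjusted p under 0.05 at any fold, where 19.2% of the tested genes did, and 3 were called higher, where 11.0% were. Adam17, a sheddase of Cx3cl1, rose by 1.90 (SE 0.29, adjusted p = 0.0034, edgeR), and Mmp2, a gelatinase that cleaves Cxcl12, by 2.47 (SE 0.46, adjusted p = 0.0067, edgeR). Mmp9 rose by 1.98 (adjusted p = 0.0253, edgeR) and Adam10, the constitutive sheddase of Cx3cl1 and Cxcl16, by 0.48 (adjusted p = 0.0290, edgeR). Neither passed the test without any 1 of the sham mice or without BCAS mouse 3, and Mmp9 had an adjusted p of 0.0758 by limma-voom. Dpp4, which trims Cxcl10 and Cxcl12, had a log2 fold change of 0.59 (adjusted p = 0.0635, edgeR), and its adjusted p over the alternatives ran from 0.00732, without BCAS mouse 2, to 0.167, with 3 of 17 under 0.05.

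Of 11 genes that carry the signal of chemokine receptors, 7 rose, 3 fell and 1 did not pass the test, beside 19.2% of all tested genes that rose and 12.8% that fell, and 4 were called higher, beside 11.0%. Their median log2 fold change was 0.87, against -0.00625 over all genes tested. These 4 are genes of leukocytes and microglia: Rgs1, a regulator of G protein signalling, rose by 5.72, Dock2, a Rac activator in migrating leukocytes, by 3.92, the GTPase Rac2 by 3.90 and the kinase subunit Pik3cg by 3.14 on the log2 scale (edgeR adjusted p from 0.00163 to 0.00306). Rgs1, with 4, 0, 0 and 2 counts in sham mice, passed the filter through its BCAS counts and had to differ, and its log2 fold change was 6.75 without sham mouse 1 and 4.60 by limma with a trend. Genes expressed more widely moved less and in both directions, with Gnai2, Arrb2 and Gnai3 higher by 0.91, 0.87 and 0.73 and Gnai1, Grk2 and Arrb1 lower, at log2 fold changes of -0.68, -0.41 and -0.37. Grk6 had a log2 fold change of -0.20 (adjusted p = 0.0689, edgeR). Grk2 and Arrb1 no longer passed the test without sham mouse 1, 2 or 4 or without BCAS mouse 3 or 4, and Arrb1 also without BCAS mouse 1, with library size alone (adjusted p = 0.0692) and with no filter on low counts (0.0575).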

How the data were processed

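The authors deposited counts of read pairs per gene, 1 table per library, from mRNA of the right cerebral cortex. Per the labels and the study's methods, reads were trimmed with Trim Galore and aligned to mm10 with HISAT2. The methods name featureCounts 1.6.3 and RefSeq genes, whereas the file headers name featureCounts 2.0.1 and GENCODE release M20, with no option for strand or for reads on more than 1 gene. Gene symbols were matched by identifier for 54723 of 54752 genes, and promoters come from RefSeq (GRCm38.p6).

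Genes with at least 10 counts (scaled to library size) in 4 libraries and 15 in total were kept (filterByExpr), scaled by TMM and tested with edgeR 4.0.16 (quasi-likelihood test, Benjamini-Hochberg adjustment), in a design without covariates. A call required that the adjusted p be below 0.05 and the log2 fold change beyond 1 in size. A fitted log2 fold change includes a prior count, so it need not equal the ratio of the CPM means. Log2 CPM for relative levels used a prior count of 2, and ligand and receptor were compared per exonic length. Exact permutation tests ran over all 70 arrangements of the mice. DESeq2 1.42.0 and limma 3.58.1 gave alternatives, and the fits were tested on simulated data.

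All 10 members and every gene of the pathway lists were to be described, and cell markers as sums, medians and counts. The members and lists were chosen with earlier results of these data known. No pairing of the mice by replicate number was detected: deviations from the group means of same-numbered sham and BCAS mice had correlations of -0.0455, -0.103, -0.0082 and 0.0013. Such correlations cannot exclude a pairing. Counts carry no molecular identifiers, so floors cover counting error only.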

Additional observations from a re-analysis of the deposited data

Results flagged for a closer look

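Among the CPM values of the 10 chemokines and 9 receptors and the 5 relative levels, each in groups of 4 mice, a single group held a mouse far from the others. For Cxcr1, a receptor of neutrophils, sham mouse 3 was at 0.0572 CPM and the other sham mice at 0. The gap equals the whole range of the group and is above the 95% critical value of Dixon's test for 4 samples, but it rests on 1 count, which is within counting error of 0. In BCAS mice Cxcr1 had 3, 1, 3 and 1 counts. Of 48 groups examined 1 met the criterion, where chance marks about 1 in 20 groups.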

How the results depend on the processing

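The number of genes called was 2097, and under the 17 alternatives it ran from 1577 to 2763, with 1636 to 2763 when leaving out 1 mouse each. In each leave-one-out fit 4 members were called higher (4 to 4), 7 with no filter on low counts and 1 of 4 tested with at least 10 counts in every library, since that filter drops Cxcl5, Cxcl9 and Cxcl10. Cxcl9, Cxcl10 and Cxcl16 kept their calls wherever they were tested. Cxcl5 lost its call with limma-voom at a log2 fold change of 4.25, and Cx3cl1 no longer passed the test without sham mouse 1, 2 or 4, at -0.77, -0.76 and -0.77; the cause was not tested. Near 0, Cxcl14 (-0.109 to 0.118 leaving out 1 mouse) turned to -0.0034 with upper-quartile scaling and to -0.05, -0.02 and -0.11 without the third sham, the fourth sham or the fourth BCAS mouse, and Ackr3 (-0.0538 to 0.129) to -0.04 and -0.05 without sham mouse 1 or BCAS mouse 4. Leaving out 1 mouse gave -3.92 to -2.94 for Cx3cl1 relative to Cx3cr1, -3.18 to -2.59 for Cxcl12 relative to Cxcr4, and 0.54 to 0.93 for Cxcl14 relative to interneuron markers. It gave -0.0037 (without BCAS mouse 1) to 0.0681 for Cx3cl1 relative to neuron markers and -0.278 to 0.0743 (without BCAS mouse 4) for Cxcl12 relative to endothelial markers. With the replicate number as a block, 1809 genes were called, and the differences of -3.45, -2.94 and 0.73 had an exact p of 0.125, the smallest that 4 pairs allow; under the block Adam10 (adjusted p = 0.0579), Ackr1 (0.0585), Grk2 (0.0643) and Arrb1 (0.0704) no longer passed the test, and no member lost its call. Genes with few counts in sham mice, Cxcl1, Cxcl2 and Cxcl13 among them, are limited by depth.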

Other observations

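On chromosome 5 the Cxcr2 ligands lie in a run of related genes, from Cxcl5 through Ppbp, Pf4, Cxcl3, Cxcl15 and Cxcl1 to Cxcl2. Cxcl3 and Cxcl15 had 0 counts in all 8 libraries, which for each library is under the level of 3 counts. Ppbp, a platelet chemokine, had 7, 9, 2 and 0 counts in sham and 0, 0, 5 and 3 counts in BCAS mice. Pf4, which platelets and some macrophages express, had 11, 13, 22 and 14 counts in sham and 58, 18, 34 and 32 in BCAS mice, giving a log2 fold change of 0.99 and an adjusted p of 0.0598 by edgeR. Over 17 alternatives the adjusted p ran from 0.0122, without BCAS mouse 2, to 0.151, and was under 0.05 in 3. Cxcl17, which lies elsewhere, had at most 2 counts in any library. In the other run, next to Cxcl9 and Cxcl10, the third Cxcr3 ligand Cxcl11 had 0, 0, 2 and 0 counts in sham and 5, 4, 5 and 12 counts in BCAS mice, higher in 4 of 4 BCAS mice but far below both neighbours. In the fit with no filter edgeR gave Cxcl11 an adjusted p of 0.0539, so it was not called. Of its exonic bases 41.7% are shared with Gm2673 on the opposite strand, where reads cannot be assigned.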
